A study of Mus musculus with 9 samples.

Results

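Kinesins are motor proteins that walk along microtubules, and 41 of the 18193 genes that the arrays measured through a probe set with 1 gene symbol carried a symbol of Kif or Kifc followed by a digit. Their annotation symbol alone chose them, with no use of expression values. They were covered by 104 probe sets, with several probe sets for 26 genes and 1 for the other 15, and a gene with several was read from the one whose mean across the 9 arrays was highest. Cenpe, a kinesin of the kinetochore, has another kind of symbol and was not a member. Expression was profiled in 3 biological replicas (A, B and C) each of yNSCs, native neural stem cells (NSCs) and cortical neurons, all of mouse. The yNSCs came from cortical neurons that had expressed wild-type YAP, a transcriptional co-activator of the Hippo pathway, from a doxycycline-inducible lentivirus together with the rtTA transactivator, and were expanded as neurospheres. Both stem cell types grew in DMEM/F12 that held N2, heparin, EGF and bFGF, whereas neurons, prepared from late embryos or newborn pups, were kept in Neurobasal with B27 and AraC, a drug that kills dividing cells. The neuronal preparations were described as enriched, not pure, and mouse strain and the passage of the arrayed spheres are not given in the sources used here.

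A kinesin couples ATP hydrolysis in its motor domain to movement along a microtubule, most members towards the plus end and the Kifc members towards the minus end. A first set of kinesins is made by dividing cells, which use them to separate the spindle poles, align chromosomes, shorten microtubules and build the central spindle for cytokinesis. Post-mitotic neurons rely on another set, which carries vesicle precursors, mitochondria and receptors along axons and dendrites. Others work at the cilium or the centriole. Transcription of many genes of mitosis is timed by a short promoter element, the cell cycle genes homology region (CHR), whose best known form reads TTTGAA and which is bound by the MuvB complexes, repressive in resting cells and activating in dividing ones.

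The promoters are shown first because the spindle kinesins shared this element, a feature that the choice of members did not use. RefSeq promoters on GRCm38.p6, each of 250 bases before and 50 bases after a start site, were matched for 33 of the 41 kinesins. TTTGAA on either strand (read as TTCAAA from the other) was found in 11 of 12 windows of spindle and cytokinesis kinesins (91.7%), but in 1 of 13 windows of transport kinesins (7.69%) and 1 of 9 windows of the cilium, centriole and depolymerizing set (11.1%). Of the 3 windows of remaining kinesins, that of Kif26b had a match, at position -9. Over all 32851 RefSeq windows the share was 17.9%, and over the 18006 windows of genes tested here it was 13.4%. The matches also lay close together. In 9 of the 12 spindle windows a match began within 30 bases of the start site, and a match within 50 bases, a distance chosen after the positions were seen, occurred in 75.0% of them, against 8.0% of 25 windows of other kinesins and 4.94% of all promoters. Those 9 are printed below, 5′ to 3′ on the strand of the gene, with TTTGAA or its complement in capitals and neighbouring bases in lower case.

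Kif11, chr19:37376338-37376393, plus strand: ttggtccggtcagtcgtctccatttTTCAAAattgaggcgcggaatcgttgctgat
Kif4, chrX:100626059-100626114, plus strand: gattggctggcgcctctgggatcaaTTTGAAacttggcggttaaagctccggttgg
Kif15, chr9:122951037-122951092, plus strand: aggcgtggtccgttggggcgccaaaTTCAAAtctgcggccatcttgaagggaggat
Kif18b, chr11:102925091-102925146, minus strand: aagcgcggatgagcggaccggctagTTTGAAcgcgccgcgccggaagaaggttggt
Kif20b, chr19:34922340-34922395, plus strand: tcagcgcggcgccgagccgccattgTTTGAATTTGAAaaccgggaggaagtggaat
Kif22, chr7:127042407-127042462, minus strand: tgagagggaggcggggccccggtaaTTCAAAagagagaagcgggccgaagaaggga
Kif23, chr9:61946767-61946822, minus strand: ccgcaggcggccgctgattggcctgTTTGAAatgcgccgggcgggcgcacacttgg
Kifc1, chr17:33890602-33890657, minus strand: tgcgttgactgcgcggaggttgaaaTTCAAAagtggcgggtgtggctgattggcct
Kifc5b, chr17:26917095-26917140, plus strand: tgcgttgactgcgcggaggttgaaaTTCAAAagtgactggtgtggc

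Counted from the start site, the element began at -19 in Kif11 and in Kif15 and at 20 in Kif4. Kif20b held a pair of copies in tandem. Kifc1 and Kifc5b, near-identical minus-end motors, differed at 2 of the 46 bases compared between their printed windows. The match of Kif2c began at position -103 and that of Kif14 at -228 from the start site, and the Kif18a window held none. Both of these start sites lie inside their gene records, not at the 5′ end. The stretch around the Kif14 match begins at 136467598, in a plus-strand record that starts at 136466301. That of Kif2c ends at 117178900, in a minus-strand record that ends at 117182624. Both windows are among the 11 of 12 with a match. TTCGAA, a variant of the element, was in none of the 12 spindle windows and in 1.56% of all promoters. CCAAT, the box bound by NF-Y (searched on both strands, and able to share an end base with TTTGAA), was in 8 of the 12 (66.7%), against 37.4% of all promoters. These matches describe sequence and were not tested as sites.

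Values are RMA summaries on the log2 scale, on which a difference of 1 is 2-fold. The median of an array lay between 4.90 and 5.02. Markers followed the labels for the most part: the neuron markers Rbfox3, Syn1, Tubb3, Map2, Snap25 and Stmn2 were all highest in neurons, and 5 of 5 measured proliferation markers were higher in yNSCs and in NSCs than in neurons. Neurons also carried all 6 microglia markers at a higher level, with a summed level of 11.83 to 12.32 per array, against 7.39 to 7.42 in yNSCs and 6.32 to 6.38 in NSCs. The summed level of 6 astrocyte markers was 13.07 to 13.21 in yNSCs, 12.42 to 12.49 in NSCs and 13.43 to 13.59 in neurons. In neurons Aqp4 averaged 10.62, Slc1a2 10.64 and Glul 12.40. Neurons also held Pdgfra, a marker of oligodendrocyte precursors, at 9.61 and Fabp7, a marker of neural stem cells, at 13.55. The summed level of 5 oligodendrocyte lineage markers was nonetheless lowest in neurons (11.97 to 12.00, against 12.77 to 12.81 in yNSCs and 12.88 to 13.05 in NSCs). That of 6 neural stem cell markers was lowest there too (13.985 to 14.06, against 14.71 to 14.73 and 14.72 to 14.88). Of these 6, 5 were called higher in yNSCs and in NSCs than in neurons. The part of these other cell types in the results below was not tested. Map2 remained at 11.52 in NSCs. One array stood apart, NSC replicate A, in which 162 genes departed over 2-fold from the average of the remaining NSC replicas, among them the kinesins Kif20b and Kif3a, while every other array had at most 30 such genes, kinesins not among them. The difference between 3′ and 5′ probe sets of Actb, a sign of RNA integrity, was 0.19 to 0.31 in yNSCs, 0.56 to 0.70 in NSCs and 0.03 to 0.21 in neurons. Its part in the results below was not tested. In bulk RNA, fewer cells of a type and less RNA per cell cannot be told apart.

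Kinesins parted by role. Against neurons, most spindle and cytokinesis kinesins were higher in yNSCs and in NSCs while most transport kinesins were lower, and between the 2 stem cell types the spindle kinesins were lower in yNSCs. In yNSCs against neurons, 17 of the 41 kinesins rose and 15 fell at an adjusted p under 0.05 (limma, Benjamini-Hochberg over all genes, as throughout). Of all genes, 62.5% passed this test (34.6% higher, 27.9% lower). In NSCs against neurons, 18 kinesins rose and 21 fell, where 67.4% of all genes passed (33.3% higher, 34.1% lower). In yNSCs against NSCs, 6 kinesins rose and 17 fell, where 39.3% of all genes passed (21.3% higher, 18.0% lower). The arrays of the groups compared did not overlap for 35, 38 and 27 kinesins in these 3 comparisons, and for 67.0%, 69.1% and 51.6% of all genes. At least 2-fold differences were called for 15 higher and 7 lower kinesins in yNSCs against neurons (18.3% and 11.0% of all genes), and for 17 higher and 7 lower in NSCs against neurons (18.6% and 12.6%). In yNSCs against NSCs they were called for 2 higher and 9 lower kinesins (6.06% and 5.97%). The median difference was -0.10, -0.35 and -0.13 over the kinesins, in the same order, and -0.01, -0.07 and 0.07 over all genes. The first 2 comparisons share the neuron arrays. Kinesins passing the test in all 3 comparisons numbered 20, a count with no share of all genes to set beside it here. Kif14 and Kif2b passed in none. With 3 arrays a group, an exact permutation test of a single gene cannot go below p = 0.1, so that calls rest on the fit across genes, and p-values measure the spread between samples that the labels name biological replicas.

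**Figure D1:**
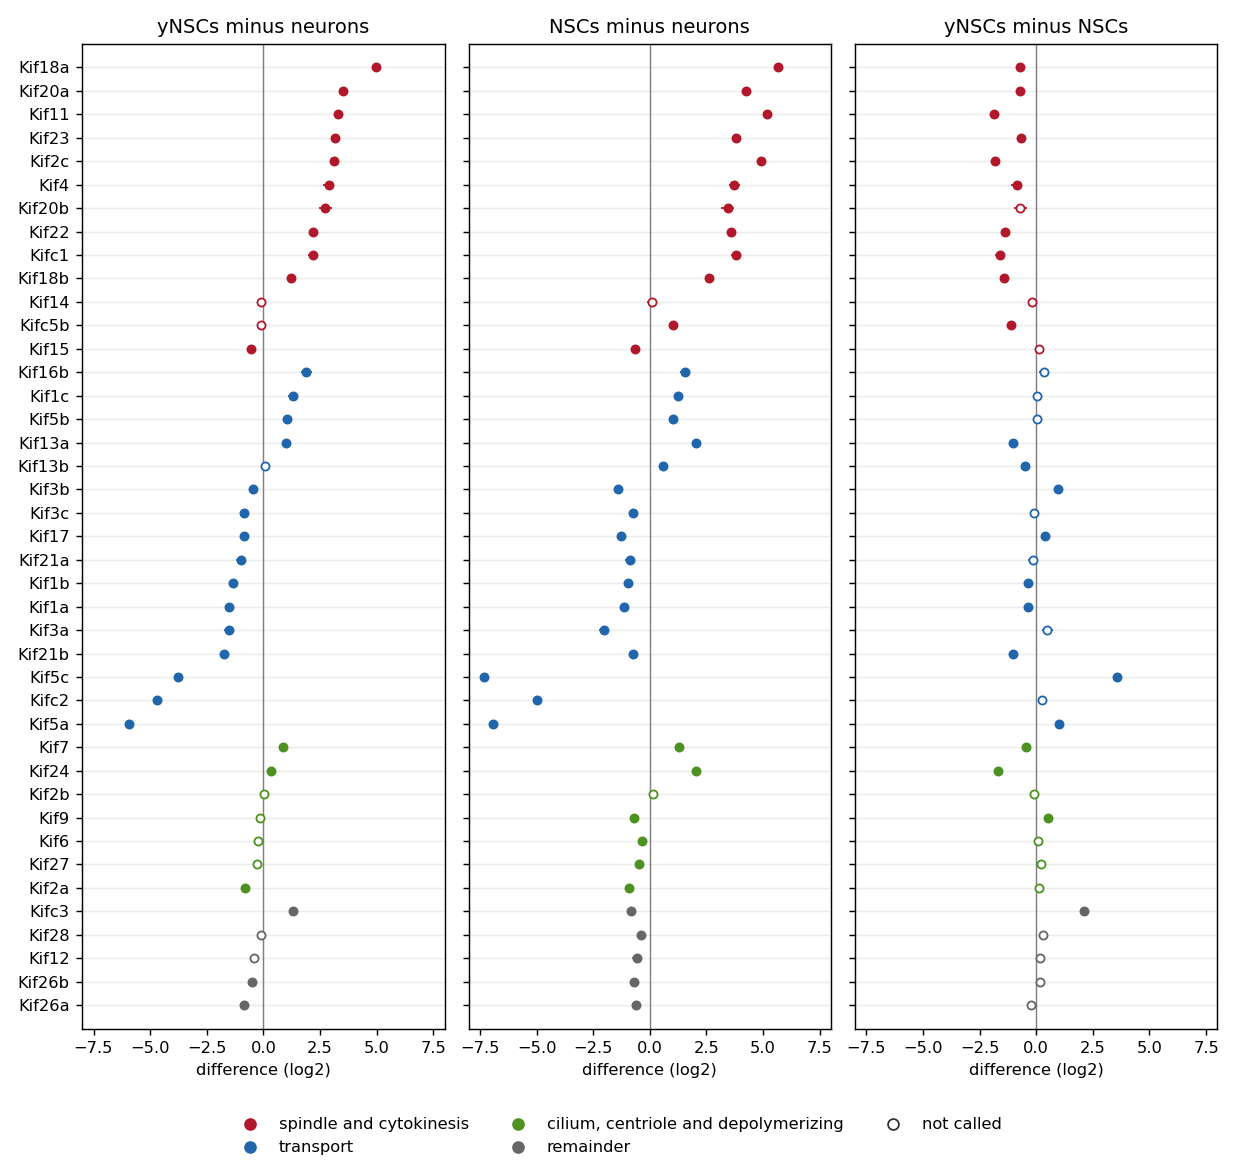
Log2 difference of each of the 41 kinesins (rows, grouped by role and sorted by the first panel) in yNSCs against neurons, NSCs against neurons and yNSCs against NSCs; horizontal bars give ± SE, filled points passed an adjusted p of 0.05 and open points did not. Spindle kinesins reach 4.97 and 5.67 in the first 2 panels and lie at or below 0.11 in the last panel, and Kif5c and Kif5a lie farthest to the left in the NSC panel.

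Among 13 spindle and cytokinesis kinesins, 10 rose and 1 fell in yNSCs against neurons, with a median difference of 2.73, and all 10 exceeded 2-fold, as did 18.3% of all genes in that direction. In NSCs against neurons the same test called 11 higher and 1 lower, the median being 3.73, and all 11 exceeded 2-fold, against 18.6% of all genes. Kif18a is a plus-end motor that damps chromosome movements at the metaphase plate. It measured 8.04, 7.99 and 7.60 in yNSCs, 8.41, 8.61 and 8.71 in NSCs and 3.10, 2.85 and 2.76 in neurons, where it lay under the lower quartile of the arrays, a level called near background here. The fitted difference was 4.97 ± 0.14 in yNSCs (± SE here and below, adjusted p = 3.74e-11) and 5.67 ± 0.14 in NSCs (adjusted p = 1.19e-11) against neurons. Set against that quartile in neurons, it was at least 4.17 in yNSCs and at least 4.87 in NSCs. Kif11, the motor that slides antiparallel microtubules to push the spindle poles apart, measured 7.36, 7.21 and 6.79 in yNSCs, 9.03, 9.01 and 8.95 in NSCs and 3.50, 4.14 and 3.86 in neurons. Its difference from neurons was 3.29 ± 0.17 in yNSCs and 5.16 ± 0.17 in NSCs, and the 3 groups did not overlap. Kif2c, which depolymerizes microtubules at the centromere, measured 7.95, 7.81 and 7.62 in yNSCs, 9.66, 9.46 and 9.65 in NSCs and 4.78, 4.58 and 4.69 in neurons. It was 3.11 ± 0.12 higher in yNSCs and 4.91 ± 0.12 higher in NSCs than in neurons. One of its 3 other probe sets went the other way in yNSCs against neurons, by -0.74.

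The motors of the central spindle gave the same order of groups. Kif20a, which brings the chromosomal passenger complex to the midzone, measured 7.64, 7.68 and 7.43 in yNSCs, 8.27, 8.30 and 8.39 in NSCs and 3.65, 4.42 and 4.11 in neurons. Kif23, the motor subunit of centralspindlin, measured 8.04, 7.85 and 7.65 in yNSCs, 8.16, 8.55 and 8.78 in NSCs and 4.47, 4.94 and 4.62 in neurons. Their differences from neurons were 3.52 ± 0.17 and 3.17 ± 0.17 in yNSCs, and 4.26 ± 0.17 and 3.82 ± 0.17 in NSCs. Kif20b, which acts late in cytokinesis, was the member whose NSC arrays disagreed most. Its values were 7.57, 7.29 and 6.90 in yNSCs, 7.15, 8.33 and 8.42 in NSCs, with replicate A low, and 4.46, 4.39 and 4.73 in neurons. All stem cell arrays nonetheless lay above all neuron arrays, by 2.73 ± 0.29 in yNSCs and 3.44 ± 0.29 in NSCs on average.

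Chromosome-bound and minus-end motors followed. Kif22, a chromokinesin that pushes chromosome arms outwards, measured 9.67, 9.57 and 9.39 in yNSCs, 10.95, 10.93 and 10.93 in NSCs and 7.44, 7.33 and 7.24 in neurons. Kif4, the chromokinesin that also limits midzone length, measured 7.47, 7.47 and 7.14 in yNSCs, 7.79, 8.43 and 8.41 in NSCs and 3.90, 4.93 and 4.60 in neurons. Differences from neurons were 2.21 ± 0.11 for Kif22 and 2.88 ± 0.24 for Kif4 in yNSCs, and 3.60 ± 0.11 and 3.73 ± 0.24 in NSCs. Kif18b controls the length of astral microtubules. It measured 6.47, 6.41 and 6.44 in yNSCs, 7.95, 7.73 and 7.84 in NSCs and 5.26, 5.17 and 5.19 in neurons, a difference from neurons of 1.23 ± 0.10 in yNSCs and 2.63 ± 0.10 in NSCs. Kifc1, which bundles microtubules at the spindle poles, measured 6.81, 6.79 and 6.81 in yNSCs, 8.22, 8.58 and 8.46 in NSCs and 5.26, 4.47 and 4.16 in neurons, 2.17 ± 0.22 above neurons in yNSCs and 3.79 ± 0.22 in NSCs. The Kifc1 probe set is of a type that can read several transcripts, and the close sequence of Kifc5b leaves the split between both uncertain. Kifc5b on its own probe set was 1.03 ± 0.18 higher in NSCs than in neurons and did not pass in yNSCs (-0.10, adjusted p = 0.632).

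A pair of members of this set did not follow it. Kif15, which can stand in for Kif11 at the spindle, has a single probe set here and measured 4.75, 4.80 and 4.96 in yNSCs, 4.86, 4.89 and 4.43 in NSCs and 5.67, 5.39 and 5.11 in neurons, with differences from neurons of -0.55 ± 0.16 in yNSCs and -0.66 ± 0.16 in NSCs, both past the test. Kif14, a cytokinesis motor, was near background in all 3 groups, at 2.37 in each yNSC array, 2.36, 2.61 and 2.67 in NSCs and 2.12, 3.03 and 2.25 in neurons. Its only probe set therefore gives no measurement of its change.

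**Figure D2:**
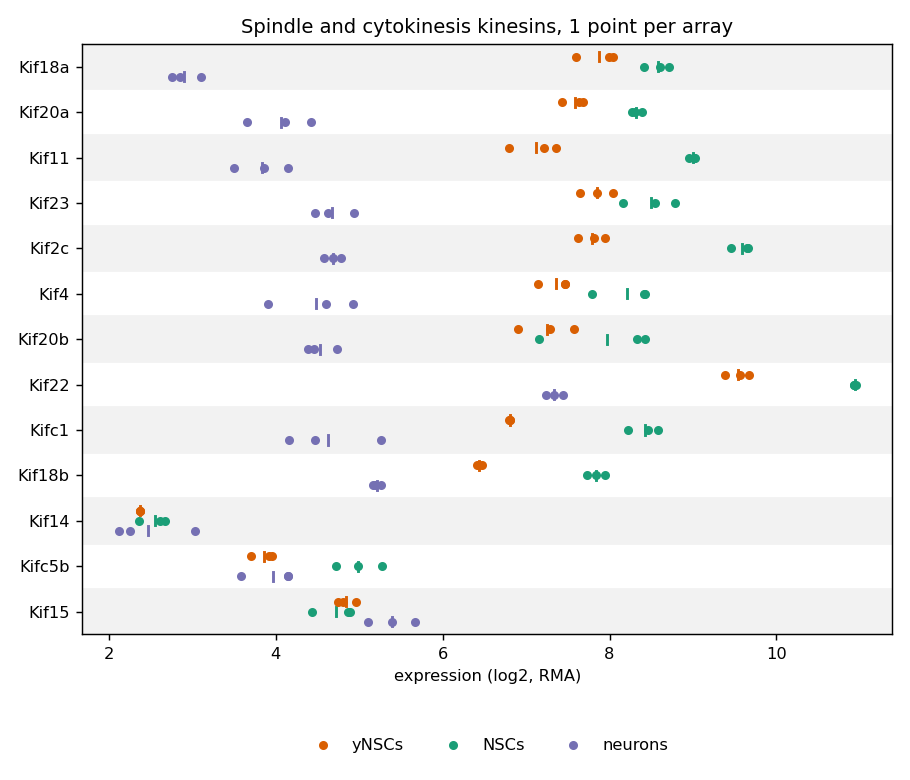
Expression (log2, RMA) of the 13 spindle and cytokinesis kinesins in yNSCs, NSCs and neurons; each point is 1 array and each tick a group mean. For 10 genes all stem cell arrays lie to the right of all neuron arrays; Kif15, Kif14 and Kifc5b are the exceptions.

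The partners of these motors were higher too. All 14 of 14 spindle and midzone partners on a list chosen for this purpose, among them Tpx2, Aurka, Aurkb, Prc1, Racgap1 and Cenpe, were higher in yNSCs and in NSCs than in neurons, with medians of 3.07 and 4.21. In the same comparisons 34.6% and 33.3% of all genes were higher. The list was chosen with earlier results of these data known. Racgap1, the other subunit of centralspindlin, was 2.11 ± 0.13 higher in yNSCs and 4.01 ± 0.13 higher in NSCs. Mki67, a marker of cycling cells, averaged 9.70 in yNSCs, 11.10 in NSCs and 6.41 in neurons.

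Between the 2 stem cell types, spindle kinesins stood lower in yNSCs. Of the 13, 10 fell in yNSCs against NSCs, 6 of them at least 2-fold where 5.97% of all genes did so, and the median was -0.85. Kif11 led with -1.88 ± 0.17 (adjusted p = 3.44e-06), followed by Kif2c with -1.80 ± 0.12 and Kifc1 with -1.62 ± 0.22. Kif18b (-1.40 ± 0.10) and Kif22 (-1.39 ± 0.11) differed by nearly as much, and for each of these 5 genes every yNSC array lay below every NSC array. The differences were smaller for Kif4 (-0.85 ± 0.24), Kif20a (-0.74 ± 0.17), Kif18a (-0.70 ± 0.14) and Kif23 (-0.65 ± 0.17), and Kifc5b differed by -1.13 ± 0.18. Other probe sets of Kif11 gave -1.22 and -0.10 (adjusted p = 0.673 for the latter). Those of Kif2c gave -1.22, -0.48 and 0.56, the last called higher (adjusted p = 0.0114). Kif4 lost its call when NSC replicate B or C or yNSC replicate C was left out (adjusted p = 0.0616, 0.0568 and 0.0636). Kif20b did not pass with all arrays (-0.71 ± 0.29, adjusted p = 0.0692), and without NSC replicate A its difference was -1.12 with an adjusted p of 0.000642. Their partners were lower too, 12 of 14 passing below NSCs with a median of -1.16, where 18.0% of all genes were lower. For Mki67 the difference was -1.40 ± 0.18. Not every proliferation marker did so: Top2a (-0.62) and Mcm2 (-0.49) fell as well, while Pcna (0.26, adjusted p = 0.0581) and Cdk1 (-0.27, adjusted p = 0.133) did not pass. Astrocyte markers moved in this comparison as well, 4 of 6 being higher in yNSCs than in NSCs with a median of 1.08, led by Gfap (5.42) and Aqp4 (4.83). So did microglia markers, 4 of 6 being higher. Of 5 mural and fibroblast markers, 3 were higher, among them Acta2 (1.68), and 1 was lower, Col1a1 (-0.39). The shares of all genes higher and lower were 21.3% and 18.0%. The 3′ minus 5′ difference of Actb was higher in all NSC arrays than in all yNSC arrays, as given above, and the part of any of these in the kinesin differences was not tested.

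Transport kinesins went mostly the other way. Of 16, 11 fell and 4 rose in yNSCs against neurons, 7 of them falling at least 2-fold where 11.0% of all genes did so. In NSCs against neurons, 11 fell and 5 rose, again 7 of them falling at least 2-fold, where 12.6% of all genes did so. Medians were -0.94 and -0.92. The kinesin-1 heavy chains, which carry vesicles and mitochondria down the axon with the kinesin light chains, spanned this range. Kif5a, the neuronal heavy chain whose human counterpart is mutated in hereditary spastic paraplegia, measured 4.45, 4.23 and 4.20 in yNSCs, 3.52, 3.03 and 3.34 in NSCs, where it was near background, and 10.29, 10.18 and 10.18 in neurons. The difference was -5.92 ± 0.13 in yNSCs (adjusted p = 5.9e-12) and -6.92 ± 0.13 in NSCs (adjusted p = 1.4e-12). Set against the lower quartile of the NSC arrays, neurons lay at least 6.78 above NSCs. The next Kif5a probe set gave -2.81 in yNSCs and -2.86 in NSCs. Kif5c, another neuron-enriched heavy chain, measured 8.49, 8.41 and 8.32 in yNSCs, 4.84, 4.52 and 5.16 in NSCs and 12.29, 12.12 and 12.08 in neurons. Its difference from neurons was -3.76 ± 0.15 in yNSCs and -7.32 ± 0.15 in NSCs. Kif5b, the heavy chain made in most cell types, measured 10.51, 10.41 and 10.49 in yNSCs, 10.09, 10.65 and 10.57 in NSCs and 9.40, 9.36 and 9.53 in neurons. It was the one heavy chain to rise, by 1.04 ± 0.14 in yNSCs and 1.01 ± 0.14 in NSCs, and all 5 of its other probe sets were also higher in both.

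Kif5c separated the 2 stem cell types more than any other kinesin. Its yNSC arrays lay 3.57 ± 0.15 above its NSC arrays (adjusted p = 4.46e-09) and below all neuron arrays. Of its 3 other probe sets, 2 were higher in yNSCs than in NSCs as well, by 1.98 and 0.75, and the remaining one lay near background in every group. Kif5a was 0.997 ± 0.13 higher in yNSCs than in NSCs on a probe set near background in NSCs, and its next probe set gave 0.05 (adjusted p = 0.805). Neuron markers moved in both directions between these groups: Snap25 (2.12), Stmn2 (1.93) and Tubb3 (1.28) were higher in yNSCs than in NSCs, while Rbfox3 (-1.92) and Map2 (-1.76) were lower. Their part in the Kif5c difference was not tested.

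**Figure D3:**
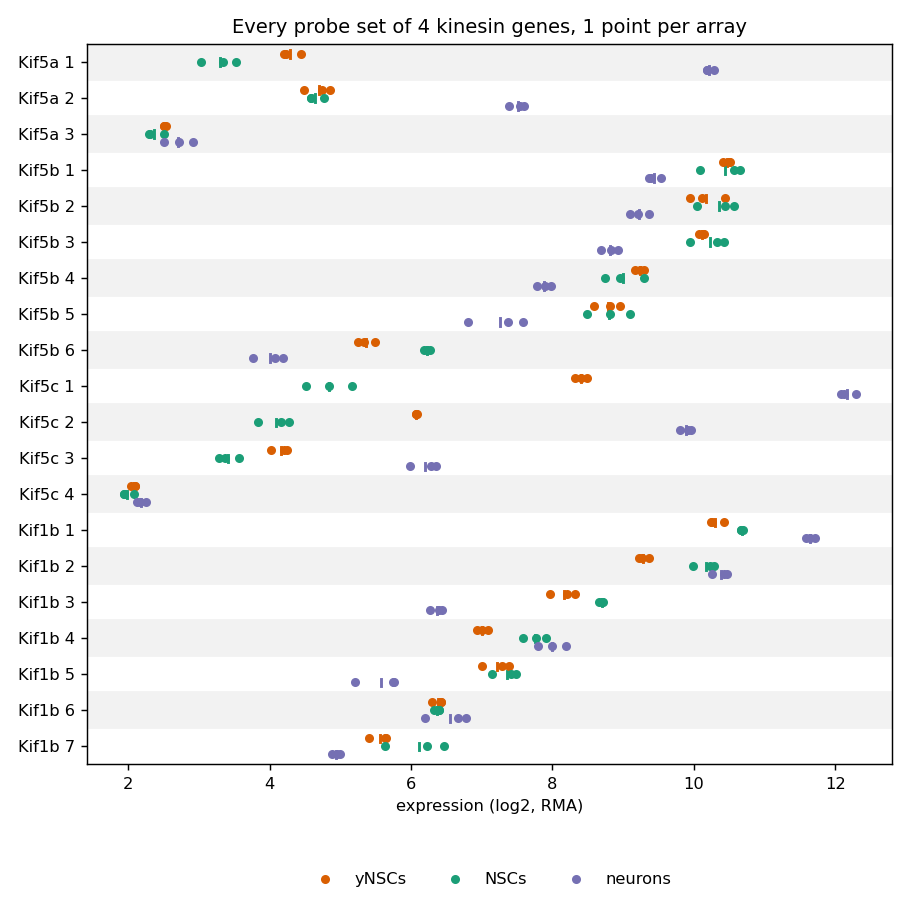
Every probe set of Kif5a, Kif5b, Kif5c and Kif1b, numbered within a gene by decreasing mean, in yNSCs, NSCs and neurons (log2, RMA); each point is 1 array. The first Kif5c probe set spreads the groups most, with yNSCs at 8.32 to 8.49 between NSCs at 4.52 to 5.16 and neurons at 12.08 to 12.29, and probe sets of Kif1b go in opposite directions.

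Vesicle motors of the kinesin-3 family were split. Kif1a, which carries synaptic vesicle precursors, measured 5.95, 5.71 and 6.05 in yNSCs, 6.30, 6.34 and 6.18 in NSCs and 7.40, 7.38 and 7.48 in neurons. The difference from neurons was -1.52 ± 0.11 in yNSCs and -1.15 ± 0.11 in NSCs, whose arrays did not overlap those of neurons. For Kif1b, whose isoforms carry mitochondria or synaptic vesicle precursors, the probe sets disagreed. Its highest probe set read 10.42, 10.25 and 10.24 in yNSCs, 10.67, 10.70 and 10.67 in NSCs and 11.71, 11.58 and 11.64 in neurons, a difference of -1.34 ± 0.10 and -0.96 ± 0.10. Another 3 of its 7 probe sets were higher than in neurons, by 1.65, 0.62 and 1.79 in yNSCs and by 1.78, 1.17 and 2.32 in NSCs, so no single direction holds for the gene. Kif13a, a motor of recycling endosomes, rose instead. It measured 7.40, 7.31 and 7.18 in yNSCs, 8.36, 8.33 and 8.27 in NSCs and 6.36, 5.97 and 6.52 in neurons, 1.01 ± 0.14 and 2.04 ± 0.14 above neurons. Kif16b, the early endosome motor, came just short of a 4-fold difference, with 6.66, 6.47 and 6.07 in yNSCs, 5.82, 6.10 and 6.26 in NSCs and 4.94, 3.95 and 4.63 in neurons (1.89 ± 0.23 and 1.55 ± 0.23 above neurons). Kif1c, a motor of Golgi and other vesicles, was 1.29 ± 0.20 higher in yNSCs and 1.25 ± 0.20 higher in NSCs.

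Kinesin-2, a heterotrimer of Kif3a, Kif3b and the adaptor Kifap3 that serves axons and cilia alike, was lower in both stem cell types on the probe sets used. Kif3a measured 8.43, 8.47 and 8.46 in yNSCs, 7.22, 8.32 and 8.34 in NSCs, with replicate A low, and 10.00, 9.91 and 10.03 in neurons. The difference was -1.53 ± 0.24 in yNSCs and -2.02 ± 0.24 in NSCs. Kif3b, its partner, measured 7.31, 7.15 and 7.16 in yNSCs, 6.15, 6.37 and 6.24 in NSCs and 7.61, 7.64 and 7.74 in neurons. It fell little in yNSCs (-0.46 ± 0.10) and more in NSCs (-1.41 ± 0.10), and yNSCs exceeded NSCs by 0.95 ± 0.10 with no overlap. Another Kif3b probe set was called higher in yNSCs than in neurons (0.42), while the remaining ones were called lower (-0.47 and -0.58). Kif3c, a related subunit found mainly in neurons, measured 8.58, 8.48 and 8.52 in yNSCs, 8.55, 8.71 and 8.66 in NSCs and 9.46, 9.32 and 9.39 in neurons, with differences of -0.86 ± 0.10 and -0.75 ± 0.10. Kifap3 itself fell too (-2.53 ± 0.10 in yNSCs and -2.23 ± 0.10 in NSCs).

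The remaining neuronal motors were lower as well. Kifc2, a minus-end motor known from dendrites and axons, measured 4.54, 4.07 and 4.19 in yNSCs, 4.12, 3.86 and 4.01 in NSCs and 9.01, 8.99 and 8.95 in neurons. Its difference from neurons was -4.72 ± 0.13 in yNSCs and -4.99 ± 0.13 in NSCs. The other Kifc2 probe set gave -2.13 in yNSCs and -2.35 in NSCs. On the probe sets used, only Kif5a in yNSCs, and Kif5c and Kif5a in NSCs, had larger downward differences. For Kifc2 the stem cell types did not differ beyond their spread (0.27 ± 0.13, adjusted p = 0.123). Kif21b, a motor that also restrains microtubule growth, measured 7.20, 7.09 and 7.09 in yNSCs, 8.20, 8.15 and 8.10 in NSCs and 8.87, 8.86 and 8.89 in neurons. All 3 groups were apart, with differences of -1.75 ± 0.09 in yNSCs against neurons, -0.72 ± 0.09 in NSCs against neurons and -1.02 ± 0.09 in yNSCs against NSCs. Its paralogue Kif21a measured 8.38, 8.18 and 8.24 in yNSCs, 7.77, 8.73 and 8.69 in NSCs and 9.32, 9.11 and 9.36 in neurons, with differences of -0.997 ± 0.21 and -0.87 ± 0.21. Kif17, which moves NMDA receptor vesicles in dendrites, fell in both (-0.87 ± 0.14 in yNSCs and -1.28 ± 0.14 in NSCs). Kif13b, which carries Dlg-bound cargo, passed only in NSCs against neurons (0.56 ± 0.14) and in yNSCs against NSCs (-0.50 ± 0.14). Its call in NSCs was lost after a further quantile normalization (adjusted p = 0.0558), and 2 of its 3 other probe sets were called lower there (-0.42 and -0.59), so no direction holds for the gene. Its call in yNSCs against NSCs was lost without yNSC replicate B (adjusted p = 0.0511).

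**Figure D4:**
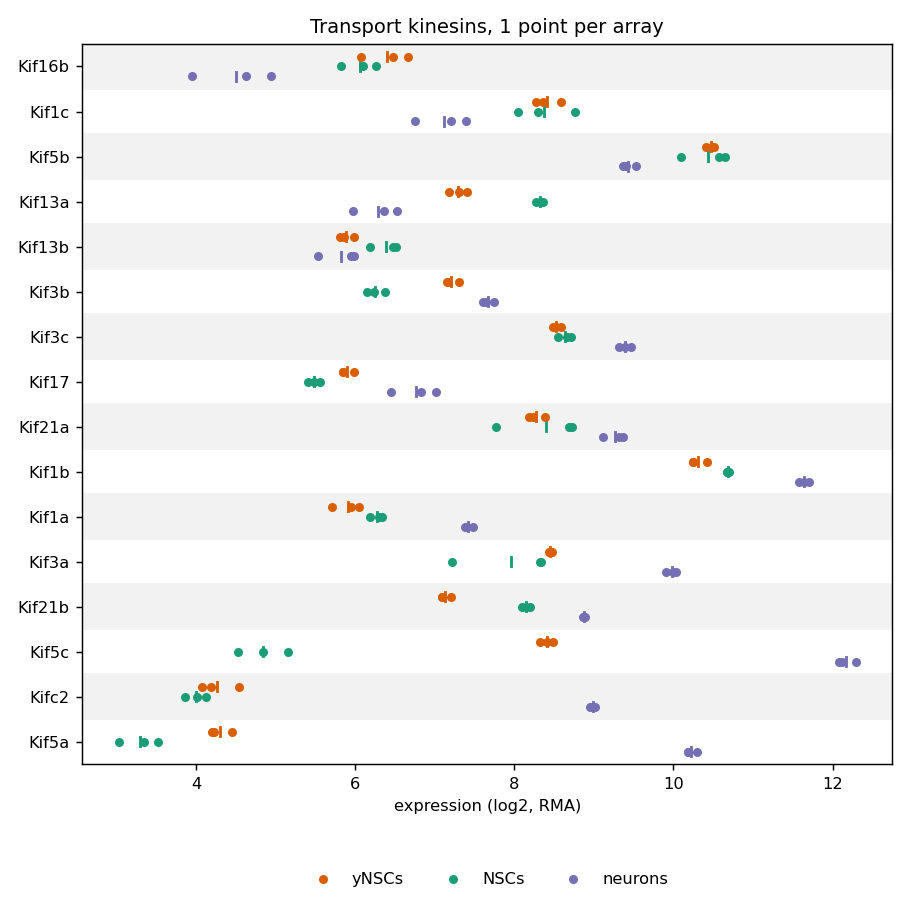
Expression (log2, RMA) of the 16 transport kinesins in yNSCs, NSCs and neurons; each point is 1 array and each tick a group mean. Kif5a, Kifc2 and Kif5c show the widest gaps between neurons and NSCs, and Kif5c alone has its yNSC arrays far from both.

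Most cargo adaptors of these motors were lower too. Of 15 light chains and adaptors measured, 9 fell and 3 rose in yNSCs against neurons, and likewise 9 and 3 in NSCs. Of all genes, 27.9% fell and 34.6% rose in yNSCs, and 34.1% fell and 33.3% rose in NSCs. Klc1, the neuronal kinesin light chain, fell as Kif5a and Kif5c did (-4.81 ± 0.10 in yNSCs and -5.26 ± 0.10 in NSCs). Mapk8ip2, a scaffold that links kinesin-1 to its cargo, fell as well (-4.06 ± 0.18 and -4.02 ± 0.18). The light chain Klc3 rose, by 1.56 ± 0.10 and 2.04 ± 0.10. Cytoplasmic dynein and dynactin, the machinery of minus-end transport, had 7 of 14 measured subunits lower and 2 higher in yNSCs than in neurons, and 6 lower in NSCs, against 27.9% and 34.6% of all genes lower and higher in yNSCs and 34.1% lower in NSCs. Its largest difference was that of Dync1i1, the intermediate chain enriched in neurons, with -4.70 ± 0.13 and -4.51 ± 0.13.

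Transport kinesins went both ways in yNSCs against NSCs, where 4 rose, 5 fell and 7 did not pass, with a median of 0.04. Of all genes, 21.3% rose and 18.0% fell. The 4 were Kif5c, Kif5a, Kif3b and Kif17. The 5 were Kif13a (-1.02 ± 0.14), Kif21b, Kif13b, Kif1b (-0.38 ± 0.10) and Kif1a (-0.37 ± 0.11), and without yNSC replicate B their number was 3. The sign for Kif1a turned without NSC replicate A (0.22) or C (0.0533), where another of its probe sets stood for it. Kif17 (0.41 ± 0.14, adjusted p = 0.0321) lost its call without any one of the 6 arrays of these groups. Kif1c did not pass (0.04), but its other probe sets (0.59, 0.56 and 0.53) and the mean of all its probe sets (0.43) did. Nor did Kif3c (-0.11), whose other probe set (-0.77) and mean of all probe sets (-0.44) passed.

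Of the 7 kinesins of the cilium, centriole and depolymerizing set, 2 rose and 1 fell in yNSCs against neurons, and 2 rose and 4 fell in NSCs. The shares of all genes that rose and fell were 34.6% and 27.9% in yNSCs, and 33.3% and 34.1% in NSCs. Kif24, which acts at the centriole to hold back cilium formation, was set apart by NSCs on the probe set used. It measured 5.48, 5.69 and 5.60 in yNSCs, 7.48, 7.21 and 7.18 in NSCs and 5.26, 5.18 and 5.29 in neurons. The difference was 0.35 ± 0.11 in yNSCs and 2.05 ± 0.11 in NSCs against neurons, and -1.70 ± 0.11 in yNSCs against NSCs (adjusted p = 1.91e-07), with no overlap of NSCs and the other groups. Without yNSC replicate B the call in yNSCs against neurons was lost (0.30, adjusted p = 0.074). The other Kif24 probe sets did not separate yNSCs from NSCs (-0.11 and 0.19, neither called). The first was called higher than in neurons by 0.55 in yNSCs and 0.66 in NSCs. The second was near background in every group. Kif7, a regulator of Hedgehog signalling at the tip of the cilium, was 0.85 ± 0.15 higher in yNSCs and 1.28 ± 0.15 higher in NSCs than in neurons. Kif2a, a microtubule depolymerase that prunes axon branches, fell in both (-0.80 ± 0.10 in yNSCs and -0.93 ± 0.10 in NSCs). Its other probe sets gave 0.03, -0.62, -0.10 and -0.15 in yNSCs against neurons, of which only -0.62 passed. In NSCs they gave -0.12, -0.97, -0.18 and -1.26, of which -0.97 and -1.26 passed. In yNSCs against NSCs the Kif2a probe set used did not pass (0.13), but the mean of all its probe sets did (0.36, adjusted p = 0.00646). Among motors of motile cilia, Kif9 fell in NSCs against neurons (-0.68 ± 0.10) and was 0.54 ± 0.10 higher in yNSCs than in NSCs, while Kif6 (-0.35 ± 0.12) and Kif27 (-0.50 ± 0.14) passed in NSCs against neurons alone. Both lost that call after a further quantile normalization (adjusted p = 0.416 and 0.153), and Kif6 also after centring arrays on their medians, with only the 6 arrays compared, or when NSC replicate A, neuron replicate A or neuron replicate C was left out (adjusted p between 0.0562 and 0.0906). The summed level of 6 ciliated-cell markers was 7.54 to 7.63 in yNSCs, 7.07 to 7.23 in NSCs and 7.06 to 7.12 in neurons. Kif2b was near background throughout.

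Kifc3, a minus-end motor known from epithelial adherens junctions, had a pattern of its own. It measured 8.02, 8.06 and 8.04 in yNSCs, 5.79, 6.04 and 5.96 in NSCs and 6.79, 6.82 and 6.63 in neurons. Its single probe set was higher in yNSCs than in neurons by 1.29 ± 0.10 (adjusted p = 2.94e-07), lower in NSCs than in neurons (-0.82 ± 0.10, adjusted p = 1.81e-05) and higher in yNSCs than in NSCs by 2.11 ± 0.10 (adjusted p = 1.68e-08). No array of 1 group overlapped another group. Kif26a, which restrains GDNF signalling in enteric neurons, differed from neurons by -0.87 ± 0.12 in yNSCs and -0.62 ± 0.12 in NSCs. Kif26b, needed in kidney development, differed by -0.52 ± 0.15 and -0.69 ± 0.15, the first no longer past the test after a further quantile normalization (adjusted p = 0.0708). Kif12, near background in NSCs, passed in NSCs against neurons alone (-0.58 ± 0.19) with overlapping arrays, and lost that call after a further quantile normalization (adjusted p = 0.149) or when NSC replicate A, neuron replicate B or neuron replicate C was left out (adjusted p between 0.0518 and 0.069). Kif28 also passed there, but its only probe set was near background in all 3 groups and gives no measurement of its change. Its call was lost after a further quantile normalization (adjusted p = 0.236) or when NSC replicate B, neuron replicate A or neuron replicate C was left out (adjusted p between 0.0572 and 0.0893).

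**Figure D5:**
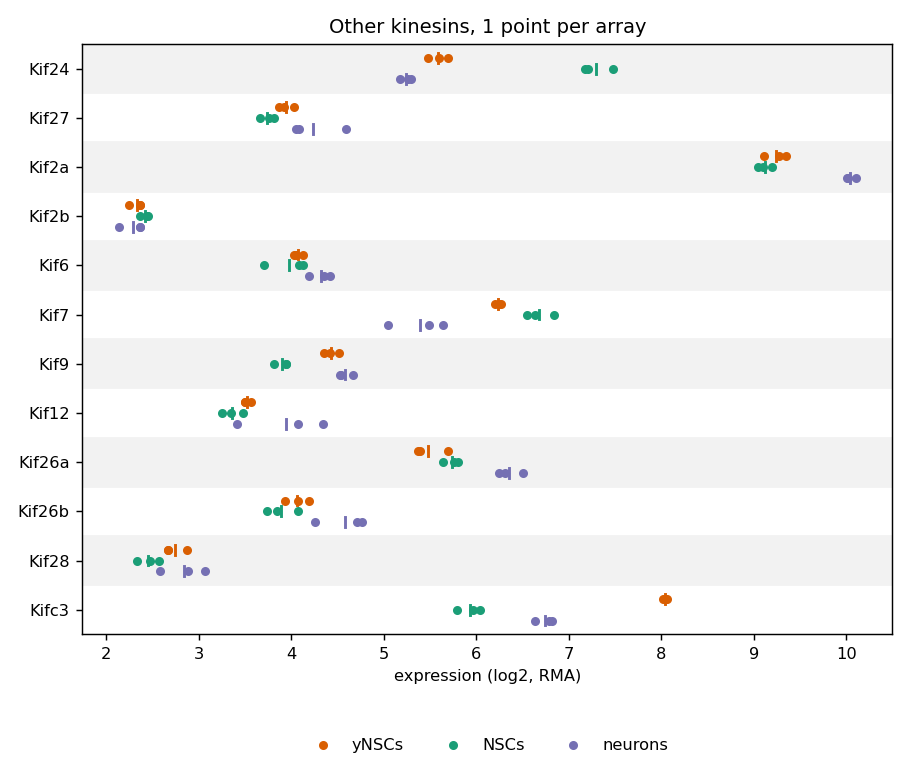
Expression (log2, RMA) of the 7 cilium, centriole and depolymerizing kinesins and of Kif12, Kif26a, Kif26b, Kif28 and Kifc3 in yNSCs, NSCs and neurons; each point is 1 array and each tick a group mean. Kif24 is separated by its NSC arrays at 7.18 to 7.48 and Kifc3 by its yNSC arrays at 8.02 to 8.06.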

How the data were processed

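Total RNA of 9 cultures was labelled as biotinylated cRNA and hybridized to Affymetrix Mouse430_2 arrays. The deposited log2 values are RMA summaries by the authors, 1 per probe set, and were used as deposited. The arrays normalized together and the RMA version are not given in the sources used here. Of 45101 probe sets, 64 controls were left out, 34945 had 1 symbol, and 932 with several symbols and 9160 not named here entered no comparison. Group means were modelled over the 18193 genes from all 9 arrays (limma 3.58.1 under R 4.3.3, 6 residual and 5.59 prior degrees of freedom), after being tested on simulated data. Genes were called at a two-sided Benjamini-Hochberg adjusted p under 0.05. SE is the moderated standard error. Near background means a group mean under the mean lower quartile of its arrays, and array number limits the precision. All kinesins were accounted for, with values per array for those called at 4-fold or more, those nearest to it and fixed paralogues, and a few further members (Kif14, Kif15) chosen after their values were seen. Members and lists were chosen with earlier results of these data known. Promoter sequences are RefSeq's (GRCm38.p6), read with Python 3.11.15 and pandas 2.3.3. Alternatives covered the replicate block, samples, filters, normalization, probe sets, variance model, a 2-fold minimum and leaving out each array.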

Additional observations from a re-analysis of the deposited data

Results flagged for a closer look

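Kifc3 was called in opposite directions against neurons, higher in yNSCs (1.29) and lower in NSCs (-0.82), and the difference of these effects, which equals yNSCs against NSCs, was 2.11 ± 0.10 (SE, limma, Benjamini-Hochberg adjusted p = 1.68e-08), with 3 of 3 yNSC arrays above all NSC and neuron arrays. Both effects share the neuron arrays and rest on 1 probe set.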

How the results depend on the processing

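Of 2058 pairs of a kinesin result and an alternative other than a single probe set, 1999 kept the call and, where called, its direction. Of the others, 40 lost the call, 14 gained it and 5 reversed, which means a change of sign where either result was called. Direction was not compared where neither result of a pair was called. Under a 2-fold minimum, kinesins lower than in neurons numbered 7 in yNSCs and 7 in NSCs, all 7 transport kinesins in each, and in yNSCs against NSCs 2 kinesins were higher and 9 lower (spindle 6 lower, transport 1 higher and 2 lower). Leaving out 1 array gave, for yNSCs against neurons, 16 to 17 kinesins higher and 15 to 17 lower (spindle 10 higher, transport 4 higher and 11 lower). For NSCs against neurons it gave 18 to 19 higher and 18 to 21 lower (spindle 11 to 12 higher, transport 5 higher and 11 lower), and for yNSCs against NSCs 5 to 6 higher and 14 to 18 lower (spindle 9 to 11 lower, transport 3 to 4 higher and 3 to 5 lower, the 3 without yNSC replicate B). Reversals with the mean of all probe sets were Kif1b (0.0671 in yNSCs and 0.53 in NSCs against neurons) and Kif13b (-0.0675 in NSCs against neurons). Kif1a in yNSCs against NSCs ranged from -0.44 to 0.22 with 1 array left out, being 0.22 without NSC replicate A and 0.0533 without NSC replicate C, where another of its probe sets had the highest mean.

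Single other probe sets reversed 23 of 189 results in that sense, which includes values near no difference that were not called. In yNSCs against neurons these were Kif1b (1.65, 0.62 and 1.79), Kif2c (-0.74), Kif13b (-0.63), Kif3b (0.42), Kif18a (-0.04), Kif20b (-0.03), Kif23 (-0.0133), Kif2a (0.0333) and Kif17 (0.0167). In NSCs against neurons they were Kif1b (1.78, 1.17 and 2.32), Kif13b (-0.42 and -0.59) and Kif2c (-0.26), and in yNSCs against NSCs Kif5b (-0.86), Kif2c (0.56), Kif13b (0.24), Kif1a (0.23), Kif24 (0.19) and Kif1b (0.01). Calls in opposite directions were limited to Kif1b, Kif2c and Kif3b in yNSCs against neurons. They were limited to Kif13b and Kif1b in NSCs against neurons, and to Kif2c in yNSCs against NSCs. In all other cases 1 of the results compared was not called. The cause was not tested. Without the 40% of genes of lowest mean 10 kinesins, and without cross-reading probe set types Kifc1, were not tested. The letters A, B and C were not treated as pairs. After group means were removed, same-letter arrays of different groups correlated between -0.105 and 0.0998, and different-letter arrays between -0.184 and 0.136. With 3 arrays a group, these correlations cannot decide whether the letters mark pairs. With the letter as a replicate block, 17 kinesins were higher and 16 lower in yNSCs against neurons, Kif12 being added (-0.42, adjusted p = 0.0449), and no other kinesin call changed. Protein sequences were not analysed here.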
